A study of Mus musculus with 8 samples.

Results

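Tight junctions seal the space between neighbouring epithelial cells. Of their genes, *Cldn1*, *Cldn3*, *Cldn4*, *Cldn6*, *Cldn7*, *Ocln*, *Tjp1*, *Tjp3* and *F11r* were followed here through a 2 h exposure to TGF-β and through the deletion of a long non-coding RNA. They were taken by symbol from the table of read counts per gene, and all 9 symbols were matched among 37310 rows. Of the 9 genes, 7 had a count in at least 1 library and 5 (*Cldn4*, *Ocln*, *Tjp1*, *Tjp3* and *F11r*) passed the filter on low counts.

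The cells were NMuMG, a mouse mammary epithelial line, grown with serum and insulin. Control cells and cells in which a *Lnc-Nr6a1* fragment spanning promoter and first exon had been cut out with CRISPR-Cas9 (KO) were sequenced untreated or after 2 h with 10 ng/ml TGF-β1, with 2 libraries in each of the 4 groups. The edited cells came from clones grown from single sorted cells, and the labels do not say whether both KO libraries share a clone. The methods of the study call the 2 libraries of a group biological replicates without saying how they were separated, so p-values measure the spread between these libraries.

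Claudins are the transmembrane proteins that form the strands of the junction and set which ions pass between cells. Occludin, encoded by *Ocln*, belongs to the MARVEL family and lies in the same strands, and junctional adhesion molecule A, encoded by *F11r*, is an immunoglobulin-like adhesion protein. The scaffolds ZO-1 (*Tjp1*) and ZO-3 (*Tjp3*) bind the tails of these proteins from the cytoplasm and tie them to actin. During epithelial-to-mesenchymal transition, which TGF-β sets off in NMuMG cells, the junctions are taken apart, and repressors such as Snail are known to bind E-boxes in promoters of claudin and occludin genes.

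The libraries held between 4297832 and 13574397 counts, and the smallest was untreated KO replicate 1. The targeted RNA, listed as Gm13507, had 3 and 14 counts in untreated control cells, 25 and 35 in treated control cells, 11 and 7 in the untreated libraries labelled KO and 0 in both treated libraries labelled KO, so it separated the genotypes after treatment but not before, and the groups are therefore called by their labels. *Jam2*, given below with its values, separated the labelled genotypes both before and after treatment. It is named for its calls between these same labels, so it does not check them. Of 4 epithelial markers, *Krt8*, *Krt18* and *Cdh1* were abundant, with a summed level of 4860 to 10000 CPM (counts scaled to the library total after TMM normalisation), while *Epcam* had no count in 7 of the 8 libraries. Markers of the other cell types were at 0 to 0.847 CPM in sum for endothelium and 2.07 to 5.45 CPM for leukocytes, and 5 mesenchymal markers, led by *Vim*, summed to 2690 to 3050 CPM in control libraries and 3680 to 4000 CPM in those labelled KO, treated or not. Most of this shift lay in *Vim*, with means of 2550 and 3540 CPM untreated and 2730 and 3670 CPM treated (control, then KO). *Cdh2* was at 101 and 104, then 128 and 128 CPM, and *Fn1* at 56.1 and 69, then 125 and 115 CPM. By the thresholds given below *Vim* was called in neither comparison of genotypes. The part of this shift in the genotype differences below was not tested.

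Promoter windows are shown for *F11r* and *Tjp3*, which were called with TGF-β, and for *Cldn4*, whose treated and untreated libraries lay furthest apart, with matches to the E-box that Snail binds and to the AP-1 site that Fos and Jun proteins bind. Each window runs from 250 bases before to 50 bases after a RefSeq transcript start in GRCm38.p6, written 5′ to 3′ on the strand of the gene, with matches to CAGGTG (E-box) or TGANTCA (AP-1) on either strand in capitals.

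Cldn4, chr5:134946885-134947184, minus strand: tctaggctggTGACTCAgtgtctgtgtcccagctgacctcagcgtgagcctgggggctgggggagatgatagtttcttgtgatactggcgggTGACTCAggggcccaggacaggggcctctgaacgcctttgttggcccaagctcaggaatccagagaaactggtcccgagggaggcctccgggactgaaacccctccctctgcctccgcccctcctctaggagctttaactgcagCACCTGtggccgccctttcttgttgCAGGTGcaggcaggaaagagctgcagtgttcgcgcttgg

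F11r, chr1:171437311-171437610, plus strand: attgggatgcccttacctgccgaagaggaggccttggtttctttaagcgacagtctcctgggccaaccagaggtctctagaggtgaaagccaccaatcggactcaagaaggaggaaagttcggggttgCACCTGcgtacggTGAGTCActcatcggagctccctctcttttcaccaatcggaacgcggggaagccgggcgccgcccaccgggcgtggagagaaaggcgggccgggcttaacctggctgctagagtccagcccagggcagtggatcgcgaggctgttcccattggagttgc

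Tjp3, chr10:81291218-81291517, minus strand: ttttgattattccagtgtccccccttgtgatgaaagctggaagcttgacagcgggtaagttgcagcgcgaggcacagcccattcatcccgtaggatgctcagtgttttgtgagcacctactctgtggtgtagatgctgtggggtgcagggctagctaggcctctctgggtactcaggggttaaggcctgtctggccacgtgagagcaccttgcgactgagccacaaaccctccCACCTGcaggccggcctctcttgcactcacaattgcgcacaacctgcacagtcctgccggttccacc

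The *Cldn4* window held 2 AP-1 matches, 240 and 158 bases upstream of the start, and 2 E-box matches, 14 bases upstream and 11 bases downstream. In the *F11r* window an E-box match lay 122 bases and an AP-1 match 109 bases upstream, and in this *Tjp3* window an E-box match lay 17 bases upstream. Over all 9 genes the E-box letters were found in 9 of 12 windows, belonging to 7 genes, against 20.2% of 32851 promoter windows of 300 bases. The 2 *Ocln* windows overlap and share 1 of these matches, so the windows are not all separate. Bases after the start in the *Cldn6* window and the *Tjp3* window not shown were absent from those genes' coding transcripts in GENCODE vM1. The AP-1 letters were found in 2 of 12 windows against 7.81% of all windows. The palindrome GTCTAGAC, to which Smad proteins bind, and the grainyhead motif AACCNGTT were in none of the 12, against 0.213% and 2.09% of all windows. These matches describe letters in the windows, and binding was not measured.

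Of the 5 claudins, 4 were close to silent in these cells. *Cldn3* and *Cldn7* had 0 counts in all 8 libraries, and *Cldn1* had a single count, in untreated KO replicate 2. A level of up to 3 counts, between 0.238 and 0.661 CPM depending on the library, is therefore not excluded, and these limits cover counting error only. *Cldn6* had 0 and 2 counts in control cells, 3 and 7 in treated control cells, 1 and 3 in the libraries labelled KO and 12 and 9 in those treated. Scaled for library size, as for all ratios of summed counts here, its summed counts in treated over untreated libraries gave a ratio of 4.10 in control cells (95% interval 0.873 to 38.4, counting error) and of 2.55 in libraries labelled KO (0.860 to 10.2), both intervals including 1. *Cldn6* did not pass the filter and was not tested.

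*Cldn4*, which encodes a claudin of many barrier epithelia (chromosome 5, 135420996 to 135422804, minus strand, NCBIM37), was near 0 without TGF-β and present with it. Its counts were 1 and 0 in control cells, 126 and 13 in treated control cells, 0 and 0 in the libraries labelled KO and 30 and 162 in the treated ones. On the CPM scale the treated libraries stood at 11.8, 1.38, 2.45 and 12.9, and every untreated library was at or below 0.121, so the groups did not overlap within either genotype. Scaled for library size, the summed counts were 114 times higher in treated than in untreated control cells (95% interval 20.1 to 4530, counting error only), and at least 14.5-fold higher in the treated libraries labelled KO, taking 3 counts per untreated library as the floor. These sizes rest on single libraries. The ratio in control cells was 22.7 without treated control replicate 1, 195 without treated control replicate 2 and 57.3 without control replicate 2, and without control replicate 1, which held the single untreated count, *Cldn4* was at least 18-fold higher. The bound in libraries labelled KO was 4.61 without treated KO replicate 2 and 24.3 without treated KO replicate 1.

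The rise of *Cldn4* did not pass the test across genes. With edgeR's quasi-likelihood test and Benjamini-Hochberg adjustment over 13028 genes, its adjusted p was 0.0528 in control cells and 0.0601 in libraries labelled KO. DESeq2 gave 0.0302 and 0.00853. *Cldn4* reached the filter level of 1.13 CPM only in treated libraries, so it had to differ in order to be tested at all. Treated libraries of both genotypes overlapped, with a log2 difference of 0.21 (SE 0.92, adjusted p = 0.904, edgeR).

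The treated replicates of *Cldn4* differed from each other more than those of almost any other gene. In treated control cells replicate 1 was 2.92 log2 units above replicate 2, a gap matched or exceeded by 0.215% of the genes tested. In treated libraries labelled KO replicate 2 was 2.30 above replicate 1, and 0.361% of genes had a gap that large. *Tjp1*, *Tjp3*, *Ocln* and *F11r* had gaps of 0.042 to 0.31 in the same libraries.

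**Figure D1:**
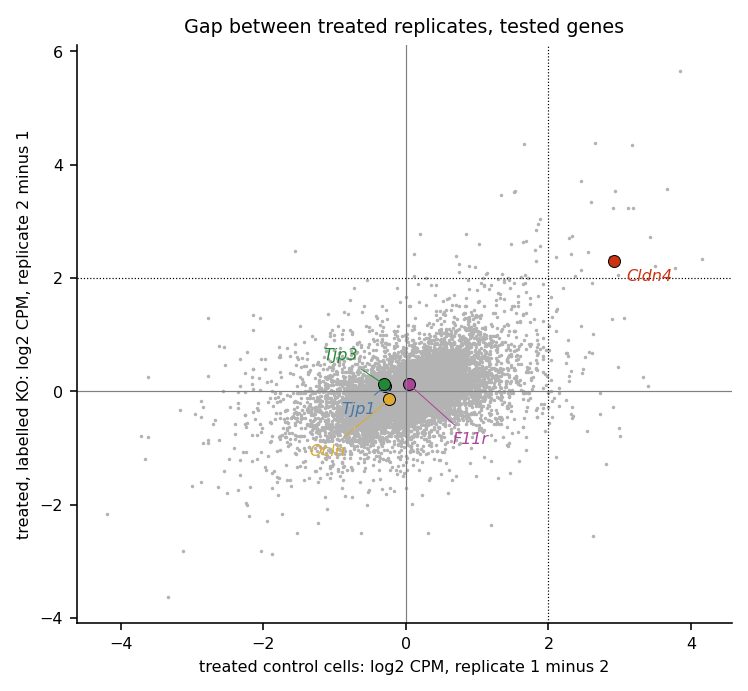
Difference in log2 CPM between the replicates of treated control cells (horizontal axis, replicate 1 minus 2) and of treated libraries labelled KO (vertical axis, replicate 2 minus 1), with 1 point per tested gene and dotted lines at 2. *Cldn4* lies at 2.92 and 2.30, whereas the other 4 tested genes lie close to 0.

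*Cldn3* and *Cldn4* are neighbours on chromosome 5 and share the longest identical coding stretch found between *Cldn4* and another of the genes compared, printed here because it bears on whether reads can be told apart. It starts at coding base 211 of *Cldn3* and 214 of *Cldn4* and is 35 bases long.

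Cldn3 and Cldn4: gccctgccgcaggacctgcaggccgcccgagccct

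No 75-base word of the transcripts of *Cldn3* or *Cldn4* occurred in a protein-coding transcript of another gene, and other transcripts were not searched. The same held for 8 of the 9 genes, the exception being *F11r*, of which 4 of 2444 words were shared with *Pacs2*.

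Compared per length, in TPM (counts divided by exon length and scaled to a fixed sum per library), the claudin of these cells was *Cldn2*, which forms channels for cations and water in leaky epithelia. It was at 322 and 383 TPM in control cells, 316 and 329 in treated control cells, 297 and 268 in the libraries labelled KO and 305 and 287 in the treated ones. It made up between 87.0% and 91.7% of the summed claudin TPM of a library. Its log2 change with TGF-β was 0.16 (SE 0.13, adjusted p = 0.484) in control cells and 0.12 (SE 0.13, adjusted p = 0.650) in libraries labelled KO by edgeR. *Cldn12* followed, at 23.8 to 38.1 TPM. Of 18 other claudin genes 4 passed the filter, and none of these was called in any comparison. Of all genes tested, 22.9% were called in at least 1 of the 4 pairwise comparisons. *Cldn23*, named after its values were seen, had 0 counts in all 4 control libraries, 0 and 2 in the untreated and 7 and 14 in the treated libraries labelled KO, a treated over untreated ratio, scaled for library size, of 5.10 (95% interval 1.25 to 44.8, counting error).

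**Figure D2:**
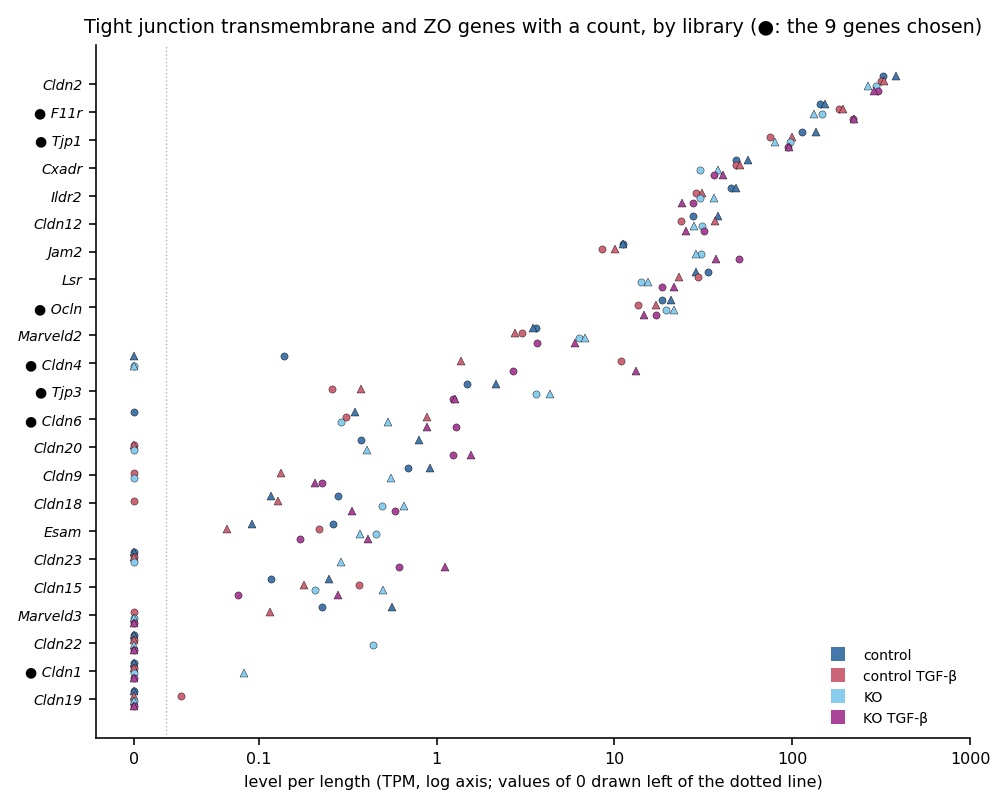
Level per length (TPM, logarithmic horizontal axis, values of 0 at the left edge) of claudin, occludin-related, JAM-family and ZO genes with a count, with 8 points per gene, 1 per library, coloured by group (circles, replicate 1; triangles, replicate 2). *Cldn2* is highest, *F11r* and *Tjp1* follow, and *Cldn4* spans from 0 to 13.3 TPM.

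*Ocln* (chromosome 13, 101266462 to 101322673, minus strand) was held within a narrow range. Its level was 38.0 and 40.8 CPM in control cells, 34.4 and 40.4 in treated control cells, 41.7 and 45.7 in the libraries labelled KO and 36.5 and 33.1 in the treated ones. The untreated libraries labelled KO lay above both untreated controls and above both of their treated counterparts. Untreated and treated control cells overlapped, as did the treated groups of both genotypes. The log2 difference was 0.15 (95% interval -0.22 to 0.52) between genotypes before treatment, -0.075 (-0.44 to 0.29) with TGF-β in control cells and -0.33 (-0.70 to 0.036) with TGF-β in libraries labelled KO. None of these passed, with adjusted p of 0.715, 0.808 and 0.267 by edgeR.

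*F11r* (chromosome 1, 173367666 to 173394734, plus strand) rose with TGF-β in both genotypes. It was at 186 and 189 CPM in control cells and 292 and 284 after TGF-β, a mean of 188 ± 2.17 against 288 ± 5.87 (SD, n = 2). The libraries labelled KO were at 197 and 175 CPM untreated and 291 and 319 treated, a mean of 186 ± 15.0 against 305 ± 19.7 (SD, n = 2). Every treated library lay above every untreated one. The rise was 1.53-fold in control cells (log2 0.62, SE 0.13, adjusted p = 0.0228, edgeR) and 1.64-fold in libraries labelled KO (log2 0.71, SE 0.13, adjusted p = 0.0137). Between genotypes the difference was -0.012 (95% interval -0.31 to 0.28) before and 0.082 (-0.21 to 0.37) after treatment, and the interaction of genotype and treatment was 0.095 (SE 0.18, adjusted p = 0.928). The call in control cells was lost without control replicate 1 (adjusted p = 0.168) or 2 (0.115), and the call in libraries labelled KO without KO replicate 1 (0.0821), KO replicate 2 (0.152) or treated KO replicate 2 (0.0981), with the fold change at 0.59 to 0.80 log2 units throughout. With only the libraries of the comparison the call in control cells was lost too (adjusted p = 0.0793, edgeR). As these are bulk libraries, a change in the share of cells of a kind and a change in RNA per cell cannot be told apart.

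*Tjp3*, the scarcer of the ZO genes described (chromosome 10, 80735952 to 80754012, minus strand), fell with TGF-β in both genotypes and was higher in the libraries labelled KO. Its counts were 18 and 25 in control cells, 5 and 6 in treated control cells, 25 and 49 in the libraries labelled KO and 23 and 26 in the treated ones. On the CPM scale these were 2.17 and 3.05, then 0.469 and 0.635, then 5.51 and 6.51, then 1.87 and 2.07. No 2 groups overlapped, the treated libraries labelled KO lying just under the untreated control cells. The fall with TGF-β was 4.67-fold in control cells (log2 -2.22, SE 0.49, adjusted p = 0.0254) and 3.05-fold in libraries labelled KO (log2 -1.61, SE 0.40, adjusted p = 0.0450), both by edgeR. After TGF-β *Tjp3* was 3.53-fold higher in the libraries labelled KO (log2 1.82, SE 0.48, adjusted p = 0.0345). Before treatment the difference was 2.31-fold in the same direction (log2 1.21, SE 0.40) and did not pass (adjusted p = 0.195). The interaction was 0.61 (SE 0.62, adjusted p = 0.822), so that the size of the fall was not shown to differ between genotypes.

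The calls on *Tjp3* rest on few counts. The difference between treated genotypes was lost whichever 1 of the 8 libraries was left out (adjusted p 0.0542 to 0.161) and had adjusted p of 0.0544 with DESeq2 and 0.0521 with limma-voom. The fall in control cells was lost without control replicate 1 (0.101), control replicate 2 (0.138) or treated control replicate 1 (0.0635), and the fall in libraries labelled KO without either control library (0.0800 and 0.0799), either KO library (0.130 and 0.224) or either treated KO library (0.185 and 0.220). The last was also lost with DESeq2 (0.0623), with the replicate block (0.0668) and after thinning to the smallest library (0.112). Thinning moved the log2 fall in control cells to -3.89 (adjusted p = 0.0582) and the difference between treated genotypes to 3.32 (0.0950). *Tjp3* and *Apba3* on the opposite strand share 40 exonic bases, and whether counting used strand is not given in the sources used here.

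*Tjp1* (chromosome 7, 72441051 to 72516125, minus strand), which encodes ZO-1, was at 408 and 462 CPM in control cells, 333 and 408 in treated control cells, 362 and 293 in the libraries labelled KO and 351 and 377 in the treated ones. Both untreated libraries labelled KO lay below both untreated controls, and in the other comparisons the groups overlapped. The log2 difference before treatment was -0.41 (95% interval -0.77 to -0.051, adjusted p = 0.266, edgeR). In the same comparison the 943 tested genes of chromosome 7 had a median of -0.25, with 75.3% of them below 0. Whether this shift contributed to the value of *Tjp1* was not tested. With TGF-β the log2 change was -0.23 (-0.59 to 0.13) in control cells and 0.15 (-0.21 to 0.51) in libraries labelled KO.

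Per length, the order in control cells was, in TPM, *F11r* (148 ± 5.74), *Tjp1* (125 ± 14.5), *Ocln* (19.7 ± 1.51) and *Tjp3* (1.82 ± 0.482; SD, n = 2 each), and no neighbours overlapped.

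**Figure D3:**
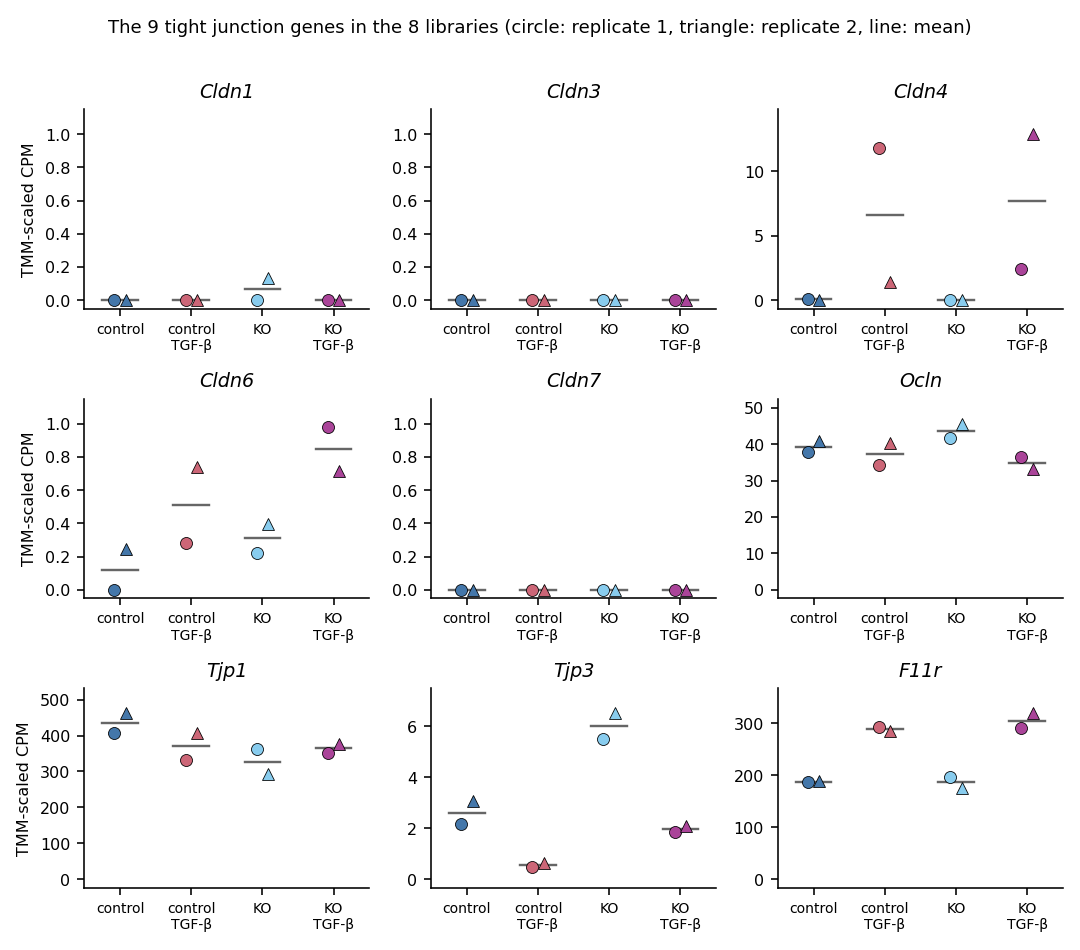
Level of each of the 9 genes (vertical axis, CPM after TMM scaling, a separate scale per panel) in the 4 groups, with 1 point per library (circle, replicate 1; triangle, replicate 2) and the group mean as a line. *F11r* is higher in every treated library, *Tjp3* separates the 4 groups, and the treated *Cldn4* points lie apart within each group.

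Counted together, with a call requiring an adjusted p below 0.05 and a log2 change beyond 0.5 in edgeR, none of the 5 tested genes was called between untreated genotypes, where 1.83% of all 13028 genes were called (1.03% higher and 0.798% lower). In that comparison 14.9% of genes had an edgeR p below 0.05 before adjustment, among them *Tjp1* and *Tjp3*. DESeq2 and limma-voom called none of the 5 either. With TGF-β 1 rose and 1 fell in control cells, where 4.69% of all genes rose and 4.47% fell (9.16% in all). In libraries labelled KO 1 rose and 1 fell likewise, where 4.25% of all genes rose and 2.57% fell (6.82% in all). Between treated genotypes 1 was higher, where 8.47% of all genes were higher and 6.57% lower (15.0% in all). For the interaction 0 of the 5 genes and 0.00% of all genes passed in edgeR, DESeq2 called none of *Ocln*, *Tjp1* and *F11r*, and each of the 5 had a p above 0.05 before adjustment. Groups that did not overlap were common with 2 libraries each: this held for *Ocln*, *Tjp1* and *Tjp3* between untreated genotypes (51.9% of all genes), for *Cldn4*, *Tjp3* and *F11r* with TGF-β in control cells (53.7%), for these and *Ocln* in libraries labelled KO (56.6%) and for *Tjp3* between treated genotypes (55.8%). The comparisons of genotype share their libraries with the comparisons of treatment.

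**Figure D4:**
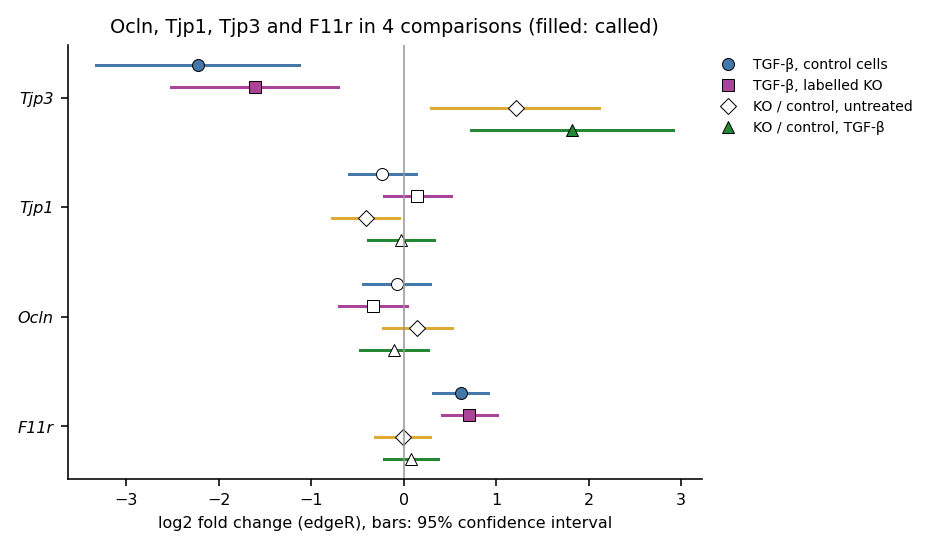
Log2 fold change (horizontal axis, edgeR) of *Tjp3*, *Tjp1*, *Ocln* and *F11r* in 4 comparisons, with 95% confidence intervals as bars and filled symbols where called. *F11r* is called with TGF-β in both genotypes at 0.62 and 0.71, *Tjp3* is called in 3 comparisons, and *Ocln* and *Tjp1* in none.

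By likeness of profile, measured as the root mean square difference of centred log2 CPM over the 8 libraries, the genes nearest to *F11r* were *Rbm18* (0.064), *Gosr2* (0.065) and *Epn2* (0.071), and the genes nearest to *Tjp3* were *Zfp395* (0.26), *Shpk* (0.28) and *Agap2* (0.28). *Cldn4* was added to this list after its values were seen, and its nearest genes were *Niacr1* (0.52), *Gm22* (0.55) and *Sema4f* (0.74).

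The rest of the junction was described with 56 further genes, of which 36 passed the filter. Among those counted as lower between genotypes, before and after treatment, is *Mpdz*, which passed the filter only through the control libraries. Between untreated genotypes 1 of the 36 was higher and 3 were lower, where 1.83% of all genes were called, with a median log2 difference of -0.060 against 0.018 over all genes. With TGF-β 2 rose and 5 fell in control cells (9.16% of all genes called, median 0.0042 against 0.016), and 2 rose and 1 fell in libraries labelled KO (6.82% called, 0.17 against 0). Between treated genotypes 6 were higher and 2 lower (15.0% called, 0.18 against -0.012).

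Among the other transmembrane proteins *Jam2*, encoding the adhesion molecule JAM-B, was higher in the libraries labelled KO with and without TGF-β. It was at 31.6 and 30.5 CPM in control cells, 30.0 and 33.0 in treated control cells, 91.3 and 84.0 in the libraries labelled KO and 148 and 117 in the treated ones. All KO libraries lay above all control libraries, by 2.82-fold before (log2 1.49, SE 0.17, adjusted p = 0.00310) and 4.20-fold after TGF-β (log2 2.07, SE 0.17, adjusted p = 0.000423). The first call was lost without control replicate 2 (adjusted p = 0.0548). *Lsr*, which encodes the tricellular protein angulin-1, was lower by 0.99 log2 units in untreated libraries labelled KO (adjusted p = 0.0469). It lies on chromosome 7 like *Tjp1* and shares 3660 exonic bases with *Gm4673* and 25 with *Gm17077*, both on the opposite strand.

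Of 12 cytoplasmic scaffold genes 11 were tested. *Mpdz*, which encodes the multi-PDZ scaffold MUPP1, had 16, 19, 19 and 23 counts in the control libraries and 0, 0, 1 and 0 in those labelled KO. It was at least 4.01-fold lower before treatment (adjusted p = 0.0423, held in 4 of 8 fits without 1 library), and after treatment its summed counts, scaled for library size, gave a ratio of 0.0193 (95% interval 0.000477 to 0.113, counting error; adjusted p = 0.00832, held in 7 of 8). *Mpdz* reached the filter level only in control libraries, so like *Cldn4* it had to differ in order to be tested. *Inadl*, which encodes the related scaffold PATJ, was 2.24-fold higher in treated libraries labelled KO than in treated controls (adjusted p = 0.00858), *Cgnl1* (paracingulin) 1.5-fold (0.0171) and *Tjap1* 1.85-fold (0.0148), whereas *Magi3* was 1.75-fold lower (0.0173). *Magi3* lies on chromosome 3, where the median of all tested genes in that comparison was -0.34.

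With TGF-β *Cgn*, encoding cingulin, fell 1.76-fold (adjusted p = 0.0446) and *Tjap1* 2.49-fold (0.00408) in control cells. In libraries labelled KO their log2 changes were -0.54 (0.170) and -0.70 (0.0523), and the interaction did not pass for either. *Amotl1*, which encodes an angiomotin-like protein, rose in both genotypes, by 1.57-fold (0.0275) and 2.36-fold (0.00206), from a level 1.67-fold lower in untreated libraries labelled KO (0.0449). All of these are edgeR adjusted p-values. Each call was refitted 8 times, leaving out 1 library each time. The calls on *Jam2* after treatment, *Inadl*, and *Amotl1* with TGF-β in libraries labelled KO held in all 8 fits, and those on *Cgnl1* and on *Tjap1* in control cells in 7. The call on *Tjap1* between treated genotypes held in 6, on *Magi3* in 5, on *Lsr* in 4, on *Cgn* and on *Amotl1* in control cells in 3, and on *Amotl1* between untreated genotypes in 2.

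Of 9 polarity genes 8 were tested. *Crb3*, an apical membrane determinant, fell 4.12-fold in control cells (adjusted p = 0.0392), *Llgl2* of the basolateral Scribble group 2.57-fold (0.0103) and *Pard6b* of the apical PAR complex 2.09-fold (0.0497), while *Mpp5*, encoding the Crumbs partner PALS1, rose 1.64-fold (0.0400). The replicates of *Crb3* in treated control cells differed by 1.75 log2 units (51 and 12 counts), and its log2 change ran from -3.31 to -1.42 without 1 library. In libraries labelled KO *Pard6b* fell 2.38-fold (0.0343), and the log2 changes of *Crb3* (-1.91, 0.0525), *Llgl2* (-0.65, 0.140) and *Mpp5* (0.67, 0.0603) did not pass. The interaction of genotype and treatment did not pass for any of these 4 genes (adjusted p 0.589 to 0.982). *Pard3* was 1.56-fold higher in treated libraries labelled KO than in treated controls (0.0274). Of 8 signalling partners *Arhgef2*, a junctional activator of RhoA, rose 1.5-fold with TGF-β in libraries labelled KO (0.0415), and *Mylk*, the myosin light chain kinase, was 1.93-fold higher in those libraries than in treated controls (0.0114). Without 1 library the calls on *Llgl2* and *Mylk* held in 7 of 8 fits, those on *Crb3*, *Mpp5* and *Pard6b* in control cells in 3, and those on *Pard6b* in libraries labelled KO, *Pard3* and *Arhgef2* in 2.

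Of 5 repressors known from epithelial-to-mesenchymal transition 3 were tested. All 3 rose within the 2 h in control cells, where 4.69% of all genes rose, and 2 in libraries labelled KO, where 4.25% did. The other repressors, *Snai2* and *Twist1*, did not pass the filter. *Snai2* had means of 1.45 CPM untreated and 0.67 treated in control cells, and 0.553 and 0.403 in libraries labelled KO. *Twist1* had 3 counts in sum in untreated control cells and 0 in each other group. *Snai1*, encoding Snail, was at 0.724 and 0.732 CPM in control cells and 15.3 and 12.5 after TGF-β, and at 1.54 and 1.46 and then 26.1 and 21.9 in libraries labelled KO. The rise was 18.8-fold (adjusted p = 0.000416) and 15.9-fold (0.000313). Its treated level was 1.72-fold higher in libraries labelled KO (0.0479), a call that held in 1 of 8 fits without 1 library (adjusted p up to 0.226). *Zeb2* rose 2.07-fold (0.00778) and 2.26-fold (0.00540), and *Zeb1* 1.84-fold in control cells (0.0250). In libraries labelled KO *Zeb1* was 1.63-fold higher with TGF-β, which did not pass (0.0616). Without 1 library the calls on *Zeb2* held in 6 of 8 fits in each genotype and the call on *Zeb1* in 4. Of 8 activators 4 were tested, and the epithelial factor *Klf5* fell 1.94-fold in control cells (0.0275) and was 1.85-fold higher in treated libraries labelled KO than in treated controls (0.0240), calls that held in 2 and 6 of 8 fits without 1 library. None of the 3 epithelial markers tested was called lower in the 4 pairwise comparisons, where 0.798% to 6.57% of all genes were. With TGF-β *Krt8* and *Krt18* rose 1.57-fold (0.0472) and 1.95-fold (0.0295) in control cells, and *Cdh1*, encoding E-cadherin, was 1.53-fold higher in treated libraries labelled KO than in treated controls (0.0433). Of the mesenchymal markers *Fn1*, encoding fibronectin, rose 2.24-fold with TGF-β in control cells (0.0332, all edgeR). In libraries labelled KO the log2 changes of *Krt8* (0.58, 0.0792), *Krt18* (0.48, 0.229) and *Fn1* (0.73, 0.153) with TGF-β did not pass in edgeR.

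**Figure D5:**
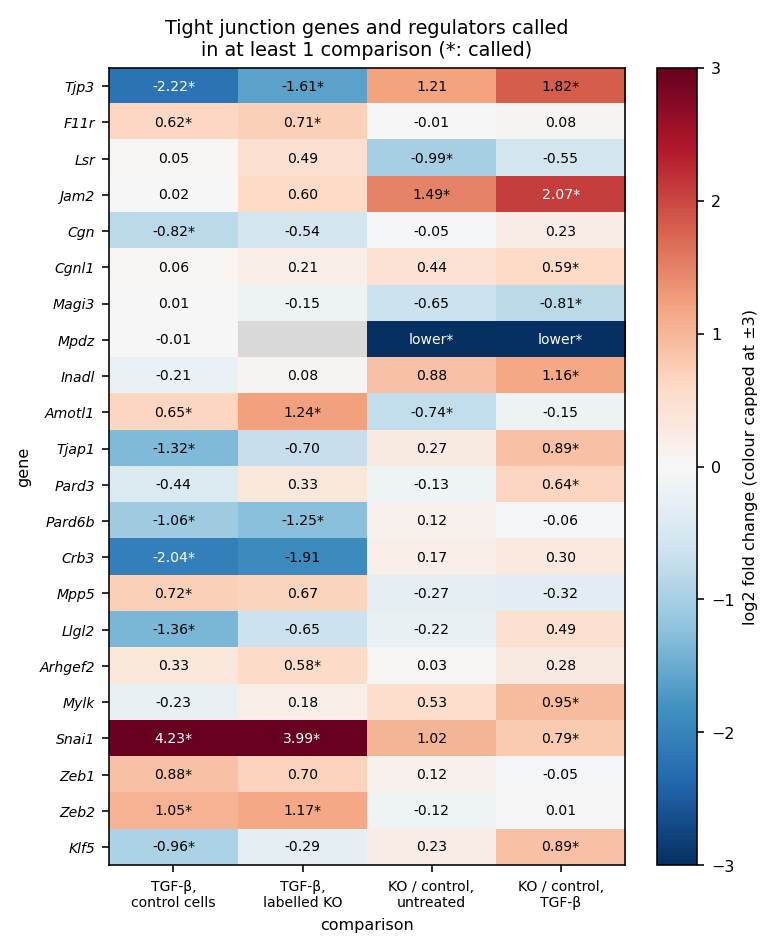
Log2 fold change in 4 comparisons (columns) for the junction genes and regulators called in at least 1 of them (rows), red for higher and blue for lower, colour capped at 3 and an asterisk where called. *Snai1* rises most with TGF-β, *Jam2* and *Mpdz* differ between genotypes in opposite directions, and *Mpdz* carries no number where a group was near 0 counts.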

How the data were processed

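Analysis started from the deposited table of raw read counts per gene, which the authors made from aligned reads without normalisation. The labels name HISAT2, limma and mm10, whereas the methods of the study describe subjunc alignment, duplicate removal and DESeq2. The labels give a total RNA kit and the methods an mRNA kit. Which program counted reads, and whether by strand, is not given in the sources used here. Gene IDs matched GENCODE vM1 (NCBIM37) for all 37310 rows, and gene coordinates are of that build. Promoter windows came from RefSeq (GRCm38.p6). 0 columns were left unused, and no 2 libraries were identical.

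Groups came from the labels. Genes were filtered with filterByExpr (13028 kept), scaled with TMM and tested with edgeR 4.0.16 (R 4.3.3) quasi-likelihood, 1 mean per group over all 8 libraries, with Benjamini-Hochberg adjustment over all genes. The biological coefficient of variation was 0.18. SE is the log2 fold change divided by the square root of F. A call needed an adjusted p below 0.05 and a log2 change beyond 0.5 (adjusted p alone for the interaction). Scripts were tested on simulated data. Floors are 3 counts per library. Alternatives were DESeq2 1.42.0, limma-voom (limma 3.58.1), RLE size factors, other filters, a replicate block, thinning to the smallest total, fits on the 4 libraries compared, a call by adjusted p alone and leaving out each library.

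All 9 genes were described. Of the other lists, genes called in at least 1 pairwise comparison were named, together with the most abundant claudins, and 1 gene that the rule also names is not reported here. The genes and lists were chosen with earlier results of these data known. The gene that GENCODE vM1 calls *Cldn25* is *Cldnd1* in RefSeq and was left out of the summed claudin level. No protein sequences were used here.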

Additional observations from a re-analysis of the deposited data

Results flagged for a closer look

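*Pard3*, which encodes a scaffold of the apical PAR complex, was the 1 result singled out by this check, because both treated control libraries lay below both untreated ones while both treated libraries labelled KO lay above their untreated counterparts. The log2 change with TGF-β was -0.44 in control cells and 0.33 in libraries labelled KO, and neither was called. The interaction of genotype and treatment was 0.77 with an adjusted p of 0.467 by edgeR, so the difference did not pass the test.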

How the results depend on the processing

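Of the 5 tested genes 0, 2, 2, 1 and 0 were called between untreated genotypes, with TGF-β in control cells, with TGF-β in libraries labelled KO, between treated genotypes and for the interaction. Between treated genotypes the count was 0 with DESeq2, with limma-voom, after thinning, with only the libraries of the comparison, and without any 1 library (0 to 0). With TGF-β in control cells it was 3 with DESeq2 and without the filter, 1 after thinning, 0 with only the libraries of the comparison and 0 to 3 without 1 library. In libraries labelled KO it was 3 without the filter and with only the libraries of the comparison, 1 with the replicate block, 1 after thinning and 0 to 3 without 1 library. The replicate numbers are not stated to mark shared cultures, and deviations of same-numbered libraries correlated at 0.098 between the untreated groups, 0.30 between untreated and treated control cells, -0.0092 between untreated and treated libraries labelled KO and -0.47 between the treated groups, so pairing is not given by the design. The replicate block left 2 calls in control cells and 1 between treated genotypes. With the numbers of the treated KO libraries exchanged in the block, an alternative chosen after seeing the data, 3, 3 and 1 were called. *Cldn4* with TGF-β had an adjusted p of 1.65e-15 and 2.27e-16 without the filter, in edgeR, and of up to 0.192 and 0.179 over the alternatives that keep all libraries and up to 0.238 and 0.281 without 1 library. Directions turned only for values close to 0 or for *Cldn4* between treated genotypes. The latter was -0.05 after thinning and -1.42 to 2.46 without 1 library. *Tjp1* between treated genotypes was 0.0099 without the filter and -0.17 to 0.14 without 1 library. *Ocln* with TGF-β in control cells was 0.017 after thinning and -0.22 to 0.032 without 1 library, and between treated genotypes -0.22 to 0.03. *F11r* between untreated genotypes was -0.096 to 0.068 without 1 library. The cause of these changes was not tested. Leaving out a library leaves 1 in its group, which is then assumed to vary like the others. Depth limits *Cldn6*, *Tjp3* and the genes near 0 counts.

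Over all genes, calls between untreated genotypes were 238, and 428 with DESeq2, 137 with limma-voom, 756 without the filter, 150 with the replicate block and 797 with only its libraries. With TGF-β they were 1194 in control cells (2021 without the filter, 483 with only its libraries) and 889 in libraries labelled KO (1832 without the filter), and between treated genotypes 1959 (402 with only its libraries). Without 1 library these counts ran from 41 to 393, 139 to 1479, 136 to 1381 and 486 to 2788, so the shares of all genes called move with them. For the interaction edgeR called 0, DESeq2 25 and edgeR without the filter 211.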

Other observations

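The high treated libraries of *Cldn4*, control replicate 1 and KO replicate 2, were also the high ones for other genes, picked out after their values were seen. A gap of at least 2 log2 units in that direction in both treated groups was found for 24 of 13028 genes (0.184%), *Cldn4* included, and a gap of that size in the opposite direction in both groups for 6. The cytokine *Lif* had 2272 and 220 counts in treated control cells and 280 and 2744 in treated libraries labelled KO. The prostaglandin synthase *Ptgs2* had 7156 and 1011 counts, then 354 and 7685. The AP-1 subunit *Fosl1* had 974 and 175, then 352 and 2384, and the matrix metalloproteinase *Mmp13* 1852 and 212, then 699 and 8388. *Ier3*, an immediate early gene, had 1592 and 231, then 295 and 3109. Untreated, in control cells and then in libraries labelled KO, *Lif* had 186 and 205, then 88 and 148 counts. *Ptgs2* had 611 and 575, then 81 and 134, and *Fosl1* 423 and 409, then 226 and 442. *Mmp13* had 206 and 159, then 168 and 263, and *Ier3* 495 and 365, then 221 and 269. The lower treated control library of *Fosl1* and *Ier3* thus held fewer counts than either untreated control library.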
